A study of Rattus norvegicus with 8 samples.

Results

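Interleukins are small secreted proteins that carry signals between cells, and each acts through a receptor built of a few chains at the cell surface. The genes described here are the interleukins and interleukin receptor chains on a rat whole-genome array, in primary chondrocytes treated with tumour necrosis factor α (TNFα) with or without an inhibitor of the kinases MEK1/2. They were chosen by name, as every gene whose symbol begins with Il and a digit, leaving out Il34, together with the leukaemia inhibitory factor gene Lif, its receptor gene Lifr, the oncostatin M receptor gene Osmr and the cardiotrophin-like cytokine gene Clcf1. The annotation gave 53 such genes of 14217 genes with a probe set naming 1 gene, and they were represented by 67 of the 31042 probe sets tested. Osmr was not among them and was not analysed here. Of the 53 genes, 26 encode ligands, and 27 encode receptor chains, decoy receptors or binding proteins. Where a gene had several probe sets, the one with the highest mean was used.

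The cells came from the femoral condyles of 1-day-old Sprague Dawley rats, were grown to confluence and were kept overnight without serum. U0126/TNFα cultures received U0126 for 30 minutes and then TNFα at 30 ng/ml for 24 hours, and TNFα cultures received DMSO, the solvent, before the same TNFα. U0126 cultures received the inhibitor and then the BSA vehicle, and DMSO cultures received solvent and vehicle only. The 4 treatments were run in 2 independent experiments, with a RAT230_2.0 array for each, which makes 8 arrays, and how many rats gave the cells of each culture is not given in the sources used here.

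TNFα is an inflammatory cytokine of the arthritic joint, where it acts beside IL-1 and IL-6 to turn chondrocytes from building matrix to degrading it. IL-6, IL-11, leukaemia inhibitory factor and cardiotrophin-like cytokine share the signalling chain gp130, encoded by Il6st, and each needs a further chain that gives specificity. IL-1, IL-18 and IL-33 form another family, which signals through Toll-like adaptors and is held back by secreted antagonists and decoys. Part of TNFα signalling runs through MEK and its substrate ERK, which U0126 blocks, and the comparison of TNFα in the presence and absence of U0126 asks which TNFα responses need that pathway.

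Values are RMA intensities on a linear scale, each array centred on its median, so that 369.7 is the middle of every array. Array medians before centring lay between 365.1 and 378.2. An intensity depends on the probes as well as on the mRNA, so levels of different genes give no order of mRNA amounts, and whether a dim probe set exceeds background is unknown. Chondrocyte markers were bright on all arrays, with 7 of 8 listed genes measured, a mean of at least 10764 for the dimmest of them, Cnmd, and summed levels of 98134 to 146831 in U0126/TNFα cultures, 74511 to 112925 in TNFα cultures, 107355 to 156595 in U0126 cultures and 96296 to 150240 in DMSO cultures. Immune cells are the usual source of many interleukins, and among 8 T cell markers the summed intensity was 1694 to 1753 in U0126/TNFα cultures, 1670 to 1747 in TNFα cultures, 1708 to 1880 in U0126 cultures and 1884 to 1899 in DMSO cultures, with 0 of the 8 passing the test in any comparison. Macrophage markers summed to 2852 to 3310 in U0126/TNFα cultures, 3721 to 4325 in TNFα cultures, 2882 to 3520 in U0126 cultures and 2950 to 3935 in DMSO cultures, and 1 of 11, Cd68, rose with TNFα by 0.85 ± 0.14 on the log2 scale (SE, limma, adjusted p = 0.0228). Of 2 B cell, 4 mast cell and 4 endothelial markers 0 passed in any comparison. Fibroblast markers, 4 of 5 measured, were bright as well. They summed to 70219 to 80661 in U0126/TNFα cultures, 70628 to 80197 in TNFα cultures, 66657 to 78054 in U0126 cultures and 66018 to 78981 in DMSO cultures. With TNFα over DMSO 5 of the 7 chondrocyte markers fell, and 1 of 4 fibroblast markers, Pdgfra, rose. The ends of each range of sums are the 2 experiments. Experiment 2 gave the lower chondrocyte sum and the higher macrophage and fibroblast sums in every treatment. The part of other cells in the interleukin values was not tested.

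Most of the interleukin genes were dim in these cells. Of the 53 genes, 14 had a mean intensity above the array median and 39 lay below it. Among the ligands 3 of 26 lay above it, namely Il33, Il17b and Il7, and the median ligand had an intensity of 131.8. Among receptors, decoys and binding proteins 11 of 27 lay above it, with a median of 292.5. The 6 with the brightest probe sets were the gp130 chain Il6st with a mean of 5619, the IL-11 receptor chain Il11ra1 with 4247, the alarmin Il33 with 2788, the IL-10 receptor chain Il10rb with 1561, and the 2 chains of the IL-17 receptor, Il17ra with 1305 and Il17rc with 1091. At the other end, the IL-36 ligand Il36b had a mean of 23.2. The classical inflammatory ligands Il1a, Il1b, Il18 and Il6 all had means below the array median, at 141.1, 106.8, 70.1 and 55.6.

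**Figure D1:**
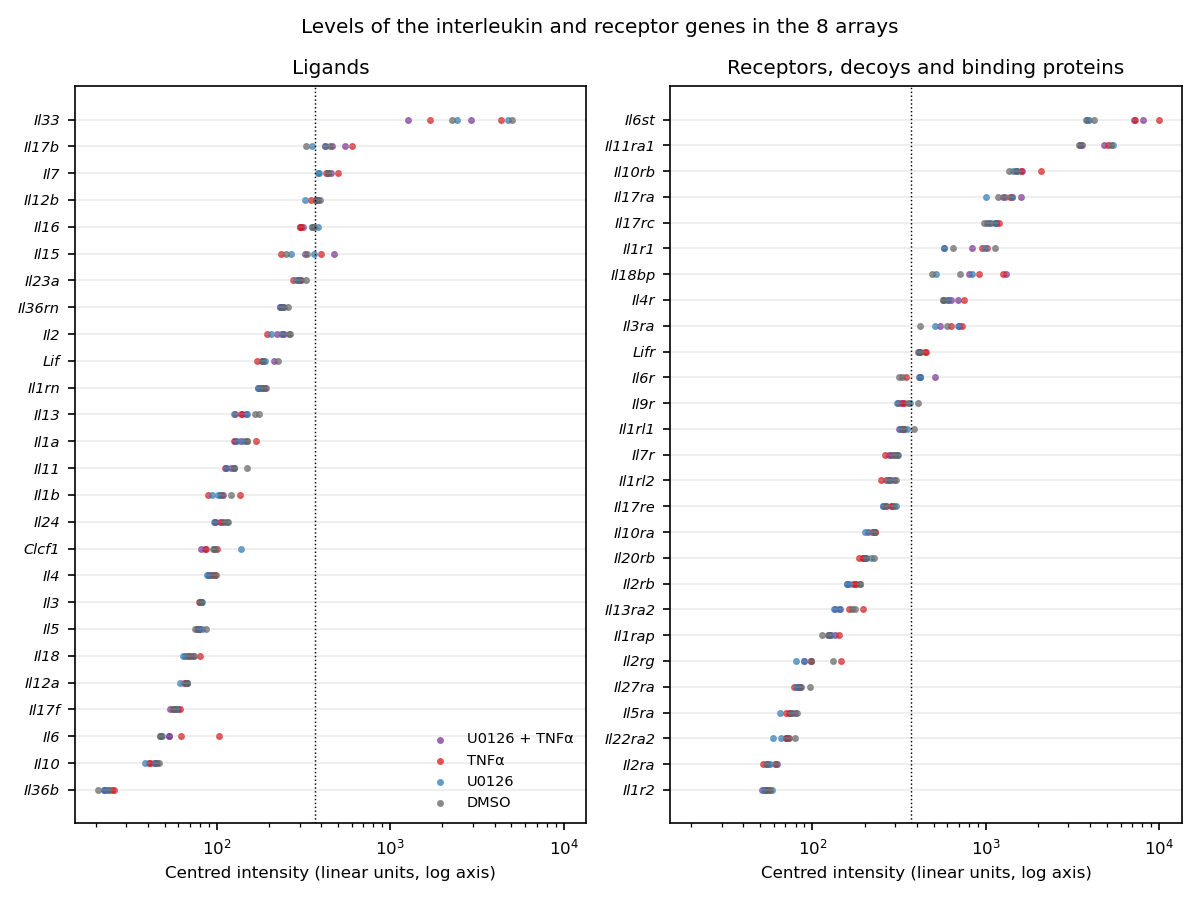
Intensity of each of the 53 genes in each of the 8 arrays (x axis, linear units on a log axis), with ligands on the left and receptors, decoys and binding proteins on the right, sorted by mean. The dotted line is the array median of 369.7, and 3 ligands and 11 receptors, decoys or binding proteins have means to the right of it. The points of most genes lie close together, and those of Il33, Il6st and Il18bp are among the most widely spread.

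With TNFα over DMSO, 3 of the 53 genes rose and 0 fell by limma with the experiment as a block at an adjusted p under 0.05. In bulk cultures such as these, a change in the share of a cell type and a change in RNA per cell cannot be told apart. The 3 genes were Il6st, the IL-18 binding protein gene Il18bp and the IL-3 receptor chain gene Il3ra. The share was 5.66%, against 5.19% of all probe sets called in this comparison, 3.41% higher and 1.78% lower, so the interleukin genes were called about as often as the array as a whole. At an unadjusted p under 0.05 there were 15 genes, 8 higher and 7 lower, against 8047 of all probe sets. The median log2 fold change was −0.03 over the 53 genes and −0.02 over all probe sets, with a range of −0.35 for Il13 to 1.08 for Il6st. The sign of the median depended on the setting, at 0.225 over the 14 genes above the array median and 0.0179 over the 53 genes under quantile normalization. By the fold rule of the study's methods, a change of 1.45-fold or more that both experiments share in direction, 2 genes passed, Il6st and Il18bp, both higher, where 2.02% of all probe sets passed. Without the experiment term in the fit, limma called 0 of the 53 genes here and 0 in the comparison after U0126. That fit called 25 and 5 of all probe sets in these 2 comparisons.

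With TNFα given after U0126, and U0126 alone as the base, 2 genes rose, Il6st and Il18bp, and 1 fell, Il33. limma called 1.24% of all probe sets in this comparison, and the fold rule, which picked the same 3 genes, passed 1.21%. At an unadjusted p under 0.05 there were 8 genes, 5 higher and 3 lower, against 3890 of all probe sets. The median log2 fold change was 0.06 over the 53 genes and −0.01 over all probe sets. The 3 calls rested on every array of the comparison. Leaving out any 1 of the 2 U0126 or 2 U0126/TNFα arrays lost all 3, with each gene still in its main direction. Most of the calls over all probe sets were lost in these fits too, so the loss was not particular to these genes.

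U0126 alone over DMSO called 0 of the 53 genes by limma, with 10 at an unadjusted p under 0.05, 2 higher and 8 lower, against 18 probe sets called (0.058%) and 4118 at an unadjusted p under 0.05 on the whole array. The fold rule also picked 0 genes, where 0.29% of all probe sets passed. U0126/TNFα over TNFα called 0 genes by limma, with 8 at an unadjusted p under 0.05, 3 higher and 5 lower, where 0.254% of all probe sets were called and 3927 had an unadjusted p under 0.05. In this comparison Il6 had 0.51-fold and 0.85-fold in the 2 experiments, and Il1r1 had 0.60-fold and 0.82-fold. Whether these genes were called depended on the TNFα array of experiment 2. The fold rule picked 0 genes there and 0.763% of all probe sets. The difference between the TNFα response with U0126 and without it was tested as an interaction. It called 0 genes and 0% of all probe sets, with 7 of the 53 genes and 2833 probe sets at an unadjusted p under 0.05, so no interleukin gene was shown to respond to TNFα differently under U0126. These comparisons share arrays, since TNFα and U0126 are both set against DMSO and U0126/TNFα is set against both single treatments.

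**Figure D2:**
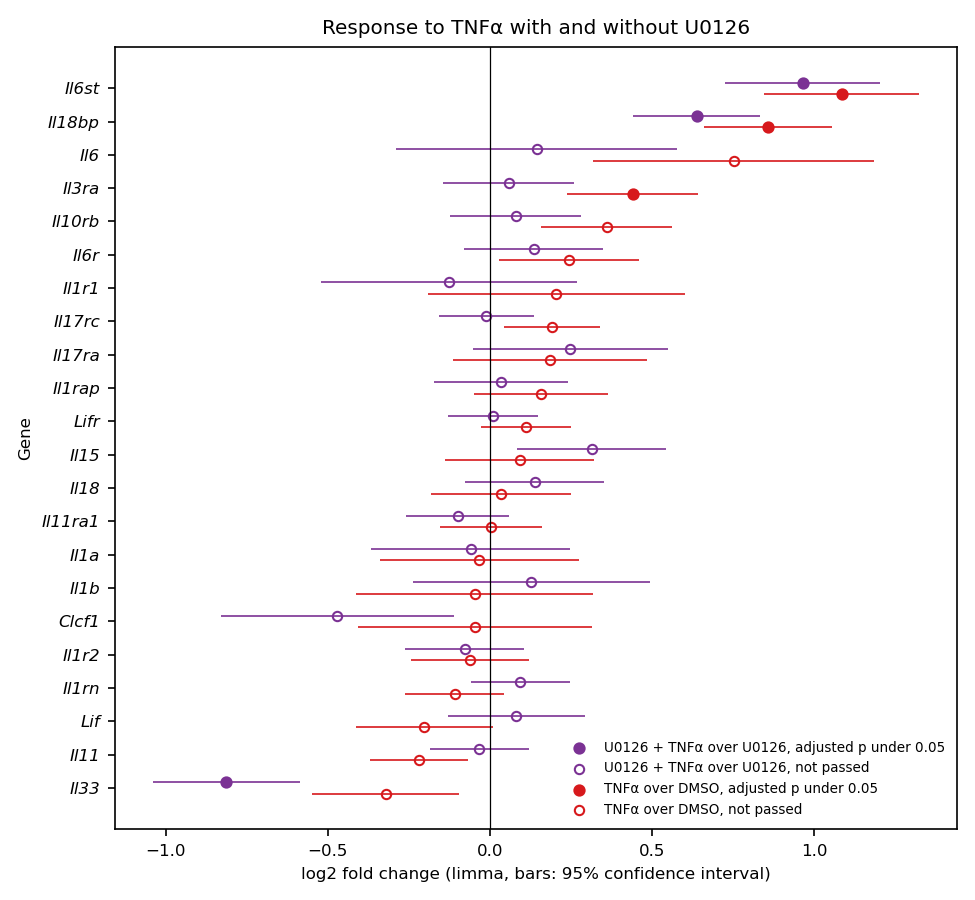
log2 fold change of 22 named genes for U0126/TNFα over U0126 (purple) and TNFα over DMSO (red), from limma, with 95% confidence intervals as bars and filled points for an adjusted p under 0.05. Il6st and Il18bp lie to the right in both comparisons, Il3ra is filled for TNFα over DMSO only, and Il33 lies to the left and is filled for U0126/TNFα over U0126 only.

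Il6st, the shared gp130 chain, gave the largest rise with TNFα among the 53 genes. Its intensity was 8062 and 7120 in U0126/TNFα cultures, 9948 and 7226 in TNFα cultures, 3953 and 3814 in U0126 cultures, and 4207 and 3798 in DMSO cultures, in experiments 1 and 2. All 4 arrays with TNFα lay above all 4 arrays without it, with nothing between 4207 and 7120. The mean was 8587 ± 1924 in TNFα cultures and 4003 ± 289 in DMSO cultures, and 7591 ± 667 in U0126/TNFα cultures and 3883 ± 98.1 in U0126 cultures (SD, n = 2 each). TNFα over DMSO was 2.36-fold and 1.90-fold in the 2 experiments, a log2 fold change of 1.08 ± 0.10 (SE, limma, adjusted p = 0.00297). After U0126 the same ratio was 2.04-fold and 1.87-fold, a log2 fold change of 0.96 ± 0.10 (SE, limma, adjusted p = 0.00971). The interaction was −0.12, with a 95% confidence interval of −0.46 to 0.22 (limma, adjusted p = 0.806). U0126 alone gave 0.94-fold and 1.00-fold.

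The array carries 4 probe sets for Il6st, with mean intensities of 5619, 4956, 4849 and 3161. They gave TNFα over DMSO as 2.36 and 1.90, 2.61 and 2.24, 3.42 and 2.23, and 3.42 and 2.42 in experiments 1 and 2, and each of the 4 was higher by limma, with adjusted p from 0.00187 to 0.00629. U0126/TNFα over U0126 ranged from 1.68-fold to 2.54-fold over the 4 probe sets and both experiments, with adjusted p from 0.00948 to 0.0294. The probe set with the highest mean thus gave the lowest TNFα response of the 4 in the second experiment and in the first. U0126/TNFα over TNFα was below 1 in all 4 probe sets and both experiments, and was not called for any of them. The probe sets below the brightest had log2 fold changes of 1.27, 1.46 and 1.53 for TNFα over DMSO. After U0126 they had 1.05, 1.09 and 1.18, wider gaps than on the brightest, and the interaction was not called for any of them.

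The ligands and specific receptor chains that use gp130 moved less. The IL-6 ligand gene Il6 had an intensity of 52.9 and 52.7 in U0126/TNFα cultures, 103 and 62.1 in TNFα cultures, 47.2 and 48.4 in U0126 cultures, and 47.2 and 47.8 in DMSO cultures. Both TNFα arrays lay above all the others, and the 2 TNFα arrays differed from each other by more than either U0126/TNFα array differed from the vehicle arrays. TNFα over DMSO was 2.18-fold and 1.3-fold, a log2 fold change of 0.75 ± 0.18, which did not pass (SE, limma, adjusted p = 0.0652). U0126/TNFα over U0126 was 1.12-fold and 1.09-fold (limma, adjusted p = 0.81), and the interaction of −0.61 had a 95% confidence interval of −1.22 to 0.01 (limma, adjusted p = 0.548). Without the TNFα array of experiment 2, which leaves only the brighter TNFα array, the log2 fold change of Il6 was 1.12. That fit holds no spread between TNFα arrays, so no test is read from it.

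The gene for the IL-6 receptor chain Il6r had 507 and 411 in U0126/TNFα cultures, 416 and 347 in TNFα cultures, 415 and 416 in U0126 cultures, and 327 and 314 in DMSO cultures. Every treated array lay above both DMSO arrays. Neither U0126 alone, at 1.27-fold and 1.32-fold (log2 0.37 ± 0.09, SE, limma, adjusted p = 0.246), nor TNFα, at 1.27-fold and 1.10-fold (adjusted p = 0.153), passed. Il11ra1, which gives IL-11 its specificity, had 3474 and 4802 in U0126/TNFα cultures, 3592 and 5077 in TNFα cultures, 3549 and 5398 in U0126 cultures, and 3461 and 5249 in DMSO cultures. Its values parted by experiment, and TNFα over DMSO was 0.00 ± 0.07 on the log2 scale (SE, limma, adjusted p = 0.983). Lifr, the receptor chain for leukaemia inhibitory factor, stayed between 409 and 450 on all 8 arrays.

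The remaining gp130 ligands were dim. Il11 had 121 and 112 in U0126/TNFα cultures, 125 and 112 in TNFα cultures, 125.8 and 112.6 in U0126 cultures, and 149.6 and 126.1 in DMSO cultures. Its TNFα over DMSO log2 fold change was −0.22 ± 0.06 (SE, limma, adjusted p = 0.0979), and that of Lif was −0.20 ± 0.09 (SE, limma, adjusted p = 0.207). Clcf1 had 80.6 and 85.2 in U0126/TNFα cultures, 101 and 86.7 in TNFα cultures, 96.1 and 137 in U0126 cultures, and 95.4 and 97.8 in DMSO cultures, so that its highest value was 1 U0126 array. No ligand or specific receptor chain of gp130 passed in any of the 5 comparisons on its brightest probe set.

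Downstream of gp130, 14 of 15 listed signalling genes were measured and 1 rose with TNFα. This was the kinase gene Jak2, with 1700 and 1316 in U0126/TNFα cultures, 3926 and 1366 in TNFα cultures, 785 and 574 in U0126 cultures, and 785 and 481 in DMSO cultures. All 4 arrays with TNFα lay above the 4 without it, and the log2 fold change for TNFα over DMSO was 1.91 ± 0.25 (SE, limma, adjusted p = 0.0106). After U0126 it was 1.16 ± 0.25 and did not pass in limma (SE, limma, adjusted p = 0.104). The ratios after U0126 were 2.17 and 2.29 in experiments 1 and 2, which pass the fold rule. The interaction of −0.76 ± 0.36 did not pass (SE, limma, adjusted p = 0.568). The feedback inhibitor Socs3 had TNFα over DMSO ratios of 2.16 and 1.23 (limma, adjusted p = 0.11) and the transcription factor Stat3 had 1.28 and 1.13 (adjusted p = 0.113). In the other 3 comparisons between treatments 0 of the 14 were called by limma. Of 5 further gp130 ligands and receptors outside the interleukin genes, 0 were called in any comparison.

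**Figure D3:**
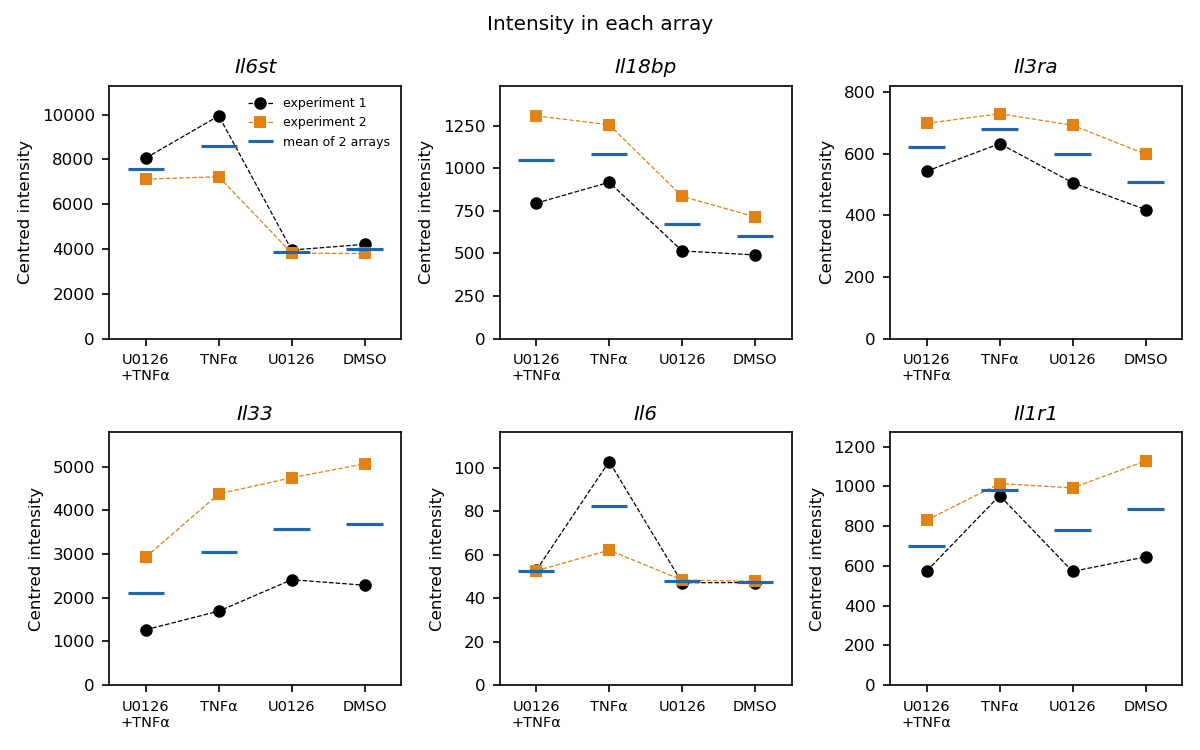
Intensity (y axis, linear units from 0) of 6 genes in U0126/TNFα, TNFα, U0126 and DMSO cultures, with circles for experiment 1, squares for experiment 2, dashed lines joining arrays of 1 experiment and bars for the mean of 2 arrays. Il6st is high on all 4 arrays with TNFα, Il18bp and Il3ra are brighter in experiment 2 in every treatment, Il33 is lowest in U0126/TNFα in both experiments, and Il6 is highest in the TNFα culture of experiment 1.

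In the IL-1 family, the secreted antagonist of IL-18 rose and the ligand itself did not. Il18bp had 796 and 1309 in U0126/TNFα cultures, 919 and 1257 in TNFα cultures, 515 and 836 in U0126 cultures, and 492 and 715 in DMSO cultures. The second experiment was brighter in every treatment, and within each experiment both arrays with TNFα lay above both without. TNFα over DMSO was 1.87-fold and 1.76-fold, a log2 fold change of 0.86 ± 0.08 (SE, limma, adjusted p = 0.00356). After U0126 it was 1.55-fold and 1.57-fold, a log2 fold change of 0.64 ± 0.08 (SE, limma, adjusted p = 0.0216). The interaction was −0.22, with a 95% confidence interval of −0.50 to 0.06 (limma, adjusted p = 0.598). Il18 had intensities between 64.2 and 79.9 on all 8 arrays and a TNFα over DMSO log2 fold change of 0.03 ± 0.09 (SE, limma, adjusted p = 0.833).

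Il33, an alarmin of the same family that is released from damaged cells and binds the receptor encoded by Il1rl1, was the only gene of the 53 to fall in a comparison by limma. It had 1266 and 2929 in U0126/TNFα cultures, 1693 and 4380 in TNFα cultures, 2412 and 4748 in U0126 cultures, and 2286 and 5069 in DMSO cultures. The second experiment was higher in every treatment, so the groups overlapped, and within each experiment U0126/TNFα was the lowest and TNFα the next. U0126/TNFα over U0126 was 0.52-fold and 0.62-fold, a log2 fold change of −0.81 ± 0.10 (SE, limma, adjusted p = 0.0145). TNFα over DMSO was 0.74-fold and 0.86-fold, a log2 fold change of −0.32 ± 0.10 that did not pass (SE, limma, adjusted p = 0.0995). The interaction was −0.49, with a 95% confidence interval of −0.81 to −0.17 and an unadjusted p of 0.00855 in limma, and it did not pass after adjustment over all probe sets (adjusted p = 0.499). U0126/TNFα over TNFα was 0.75-fold and 0.67-fold (limma, adjusted p = 0.102), and U0126 alone over DMSO was 1.06-fold and 0.94-fold.

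The second Il33 probe set, with a mean intensity of 1202, gave smaller changes of the same direction, at 0.69-fold and 0.78-fold for U0126/TNFα over U0126 (log2 −0.44 ± 0.11, SE, limma, adjusted p = 0.136) and 0.77-fold and 0.94-fold for TNFα over DMSO. The fall of Il33 after U0126 was thus called on 1 of 2 probe sets. The receptor gene Il1rl1, named here after its values were seen, also had 2 probe sets that differed. The brighter one lay between 315 and 384 on all 8 arrays. The other had 153 and 162 in U0126/TNFα cultures, 282 and 292 in TNFα cultures, 146 and 174 in U0126 cultures, and 193 and 300 in DMSO cultures, with all 4 arrays with U0126 below the 4 without it. Its U0126/TNFα over TNFα ratio was 0.54 and 0.55, past 1.45-fold in both experiments, with a log2 fold change of −0.87 ± 0.14 that did not pass (SE, limma, adjusted p = 0.0748).

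**Figure D4:**
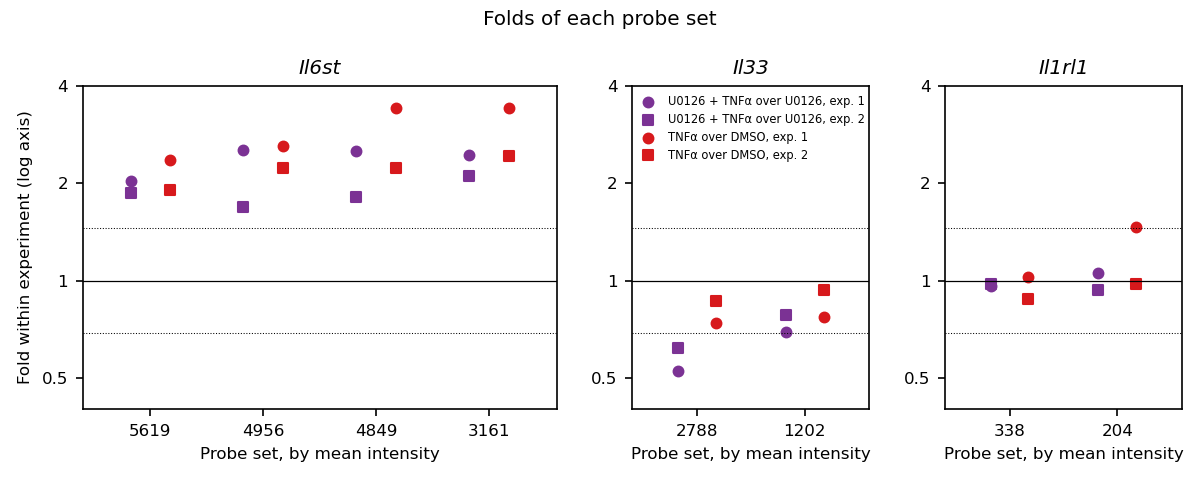
Fold change within each experiment (y axis, log scale) for each probe set of Il6st, Il33 and Il1rl1, named on the x axis by mean intensity, for U0126/TNFα over U0126 (purple) and TNFα over DMSO (red), with circles for experiment 1 and squares for experiment 2. Solid and dotted lines mark no change and 1.45-fold. All 4 Il6st probe sets lie above the upper dotted line, and the fall of Il33 passes the lower one in both experiments on the probe set of mean 2788 only.

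The other IL-1 family genes were not called in any comparison. The type I receptor gene Il1r1 had 574 and 830 in U0126/TNFα cultures, 954 and 1014 in TNFα cultures, 572 and 992 in U0126 cultures, and 645 and 1128 in DMSO cultures. Its TNFα over DMSO ratio was 1.48 in the first experiment and 0.90 in the second, so the experiments went opposite ways, and U0126/TNFα over TNFα was 0.60 and 0.82 (log2 −0.51 ± 0.17, SE, limma, adjusted p = 0.287). The ligand Il1b had 104 and 109 in U0126/TNFα cultures, 89.3 and 136 in TNFα cultures, 101 and 93.8 in U0126 cultures, and 108 and 120 in DMSO cultures, with no common direction. Il1a lay between 126.4 and 168 on all arrays, the receptor antagonist Il1rn between 172 and 193, the accessory chain Il1rap between 114 and 142, and the decoy receptor Il1r2 between 50.9 and 58.6.

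Among 13 of 14 listed genes of IL-1 receptor and inflammasome signalling, 2 rose with TNFα and 0 fell. The inhibitory kinase-like gene Irak3, which dampens IL-1 receptor signalling, had 1891 and 2171 in U0126/TNFα cultures, 3086 and 2391 in TNFα cultures, 1026 and 1539 in U0126 cultures, and 1041 and 1497 in DMSO cultures, with a TNFα over DMSO log2 fold change of 1.12 ± 0.21 (SE, limma, adjusted p = 0.0341). The inflammasome adaptor Pycard had a log2 fold change of 0.84 ± 0.14 (SE, limma, adjusted p = 0.0252). Casp1, the protease that cuts the precursors of IL-1β and IL-18, had TNFα over DMSO ratios of 1.34 and 1.73 and did not pass (limma, adjusted p = 0.051). In the other 3 comparisons between treatments 0 of the 13 were called.

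Il3ra, the chain that gives the IL-3 receptor its specificity, had 544 and 700 in U0126/TNFα cultures, 634 and 731 in TNFα cultures, 507 and 693 in U0126 cultures, and 419 and 600 in DMSO cultures. The TNFα arrays lay above the DMSO arrays, and the U0126/TNFα and U0126 arrays overlapped. TNFα over DMSO was 1.51-fold and 1.22-fold, a log2 fold change of 0.44 ± 0.09 (SE, limma, adjusted p = 0.0368). After U0126 the ratio was 1.07 and 1.01 (log2 0.06 ± 0.09, SE, limma, adjusted p = 0.842), and the interaction of −0.38 did not pass (limma, adjusted p = 0.525). The call of Il3ra was lost with quantile normalization (adjusted p = 0.0545) and in 7 of the 8 fits that left out 1 array. The IL-3 ligand gene Il3 lay between 78.6 and 81.8 on all 8 arrays.

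The other bright receptor chains shifted less than the threshold. Il10rb, a chain shared by several receptors of the IL-10 family, had 1624 and 1487 in U0126/TNFα cultures, 2080 and 1604 in TNFα cultures, 1512 and 1431 in U0126 cultures, and 1485 and 1363 in DMSO cultures. TNFα over DMSO was 1.40-fold and 1.18-fold (log2 0.36 ± 0.09, SE, limma, adjusted p = 0.0603), and U0126/TNFα over U0126 was 1.07-fold and 1.04-fold. The TNFα response of Il10rb passed on all 8 arrays when values were not centred. Whether it passed also depended on the TNFα array of experiment 2, without which 1 TNFα array is left. Il17ra had a TNFα over DMSO log2 fold change of 0.19 ± 0.13 (SE, limma, adjusted p = 0.379), and Il17rc one of 0.19 ± 0.06 (SE, limma, adjusted p = 0.117). Il15, a ligand of the common gamma chain receptors, had 321 and 473 in U0126/TNFα cultures, 236 and 401 in TNFα cultures, 269 and 365 in U0126 cultures, and 252 and 330 in DMSO cultures. It was highest in U0126/TNFα in both experiments, and neither U0126/TNFα over U0126 (log2 0.31 ± 0.10, SE, limma, adjusted p = 0.237) nor U0126/TNFα over TNFα (0.34 ± 0.10, adjusted p = 0.233) passed. Of 4 signalling genes of the common gamma chain receptors 0 were called in any comparison.

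Over the whole set, 3 genes had all 4 arrays with TNFα above all 4 without, where 3.72% of all probe sets did, and 2 had them all below, where 3.98% did. The 3 were Il6st, Il6 and the IL-4 receptor chain gene Il4r, which had 689 and 634 in U0126/TNFα cultures, 748 and 607 in TNFα cultures, 574 and 604 in U0126 cultures, and 566 and 565 in DMSO cultures. The 2 were Il16, with 315 and 301 in U0126/TNFα cultures, 300.4 and 307 in TNFα cultures, 384 and 353 in U0126 cultures, and 354 and 361 in DMSO cultures, and the receptor chain gene Il20rb. Il4r, Il16 and Il20rb were named after their values were seen, and none of the 3 passed the test for TNFα over DMSO (limma, adjusted p from 0.0952 to 0.21).

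For sequence context, the 250 bases before the promoter table's start sites were searched on both strands for 4 motifs, the AP-1 site TGANTCA, the NF-κB consensus, the EGR site GCGNGGGCG and the C/EBP site TTNNGNAA. The RefSeq promoter table, on build GRCr8, held 39 of the 53 genes. The AP-1 letters were in 4 of 39 windows (10.3%, against 6.34% of 33469 promoters), the NF-κB consensus in 4 (10.3%, against 6.33%), the EGR letters in 0 (0%, against 4.29%) and the C/EBP letters in 20 (51.3%, against 37.2%). Only 25 of the 39 windows lay within 200 bases of the RefSeq gene start. Of these 25 windows, 1 held the AP-1 letters, 3 the NF-κB consensus, 0 the EGR letters and 11 the C/EBP letters. The windows of Il6st and Il18bp began 11360 and 1035 bases inside their genes and are not shown. Of the genes with the largest shifts, Il6 had its window directly before the RefSeq gene start, and that of Il33 reached 95 bases into the gene, so that 155 of its bases lie before the start. The bases before the gene start are printed, 250 for Il6 and 155 for Il33, 5′ to 3′ with the matches in capitals, from chr4:5894576-5894825 on the minus strand for Il6 and chr1:237115323-237115477 on the plus strand for Il33.
Il6: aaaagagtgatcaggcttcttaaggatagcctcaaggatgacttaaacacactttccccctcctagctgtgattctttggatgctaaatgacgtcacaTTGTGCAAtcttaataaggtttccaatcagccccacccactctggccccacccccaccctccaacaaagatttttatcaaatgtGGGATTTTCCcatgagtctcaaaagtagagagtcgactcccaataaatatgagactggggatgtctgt
Il33: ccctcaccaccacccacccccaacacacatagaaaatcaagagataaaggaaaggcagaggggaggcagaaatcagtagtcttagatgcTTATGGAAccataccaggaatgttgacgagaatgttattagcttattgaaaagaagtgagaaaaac
In Il6, the gene with 103 and 62.1 in TNFα cultures against 47.2 and 47.8 in DMSO cultures, the NF-κB match GGGATTTTCC lies 68 to 59 bases before the RefSeq gene start and the C/EBP match TTGTGCAA 152 to 145 bases before it, and the 2 do not overlap. In Il33 a C/EBP match, TTATGGAA, lies 66 to 59 bases before the RefSeq gene start. These are matches of letters and were not tested as binding sites.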

How the data were processed

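The deposited table holds linear intensities. The submitters' processing notes list RMA without a version, and the methods describe GeneSpring, division of each chip by its 50th percentile and of each probe set by DMSO. The intensities as deposited hold neither division. Each array was centred on its median in log2. Of 31099 probe sets, 57 controls were left out, and 20826 carried 1 gene symbol, 436 several and 9780 none in the array's annotation of 2016. Depth has no count on an array, and 2 arrays a treatment limit the precision. Treatment and replicate number came from the labels. Equal numbers stand for 1 experiment, as in the methods, and deviations of same-numbered arrays from their treatment means correlated at 0.728 to 0.829. All 8 arrays entered 1 limma fit (version 3.58.1, R 4.3.3) with treatment and experiment terms, with Benjamini-Hochberg adjustment over 31042 probe sets. A limma fit of the same design was tested on simulated data, and the fold rule was not. Fold changes within an experiment were computed in Python 3.11.15. The fold rule has no p value.

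The genes, the lists and the rule for naming genes were chosen with earlier results of these data known. Named genes were those past limma or the fold rule in any comparison, the 6 brightest, and a list of IL-1, IL-6 and IL-15 system genes, with Il15ra not found and not analysed here. The alternatives were other normalizations, filters, priors, probe sets and fold thresholds, no block, and each array or experiment left out.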

Additional observations from a re-analysis of the deposited data

Results flagged for a closer look

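Among the named genes, the receptor antagonist gene Il1rn went opposite ways in the 2 TNFα comparisons. Genes outside the named list were not part of this screen, and the pattern was not particular to Il1rn. Il2, Il1rl2, Il23a, Il2rb, Il5ra and Il22ra2, named here after their values were seen, had it in both experiments. All of these lay below the array median. Il2 had 0.91-fold and 0.74-fold for TNFα over DMSO, and 1.03-fold and 1.08-fold for U0126/TNFα over U0126. Il1rl2 had 0.87-fold and 0.90-fold, and 1.06-fold and 1.02-fold. The intensity of Il1rn, below the array median, was 190.4 and 184 in U0126/TNFα cultures, 173 and 178 in TNFα cultures, 179 and 172 in U0126 cultures, and 185 and 193 in DMSO cultures. U0126/TNFα over U0126 was 1.07-fold in both experiments, and TNFα over DMSO was 0.93-fold and 0.92-fold. The difference of 0.20 on the log2 scale did not pass as an interaction over all probe sets (limma, adjusted p = 0.557).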

How the results depend on the processing

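Il6st and Il18bp were called higher with TNFα over DMSO in every fit run except the one with no replicate block, which dropped the pairing by experiment and called 0 genes there (adjusted p = 0.133 and 0.482) and 0 for TNFα after U0126, where limma with the block called 3 in each. Leaving out single arrays changed which genes were called for TNFα over DMSO, for U0126/TNFα over U0126 and for U0126/TNFα over TNFα. Each such fit left 1 array in a treatment. In these fits the lone array of a treatment was assumed to vary like the others. The number called over all probe sets changed as well, so no count from them is read as a result about these genes. A fold threshold of 2 picked 0 genes for TNFα over DMSO (2 at 1.45) and 0 for U0126/TNFα over U0126 (3 at 1.45), and 1.3 or any probe set picked 1 gene for U0126/TNFα over TNFα. Both 0 counts use the brightest probe set of Il6st. Its other probe sets passed 2-fold for TNFα over DMSO, at 2.61 and 2.24, 3.42 and 2.23, and 3.42 and 2.42. The dimmest of them also passed it for U0126/TNFα over U0126, at 2.44 and 2.10. Experiment 1 alone and experiment 2 alone gave 5 and 3 genes for TNFα over DMSO, 3 and 5 for U0126/TNFα over U0126, 0 and 1 for U0126 over DMSO and 2 and 2 for U0126/TNFα over TNFα. The share of all probe sets past the rule in 1 experiment, or at a threshold of 2 or 1.3, was not computed. The median log2 fold change of the genes above the array median was 0.225 for TNFα over DMSO (0.0179 for all 53 genes under quantile normalization), 0.0241 for U0126 over DMSO, 0.107 for U0126/TNFα over U0126 and −0.0921 for U0126/TNFα over TNFα, so the sign of the first 2 medians depends on the setting. The cause was not tested. Values that were not centred gave 4 genes for TNFα over DMSO, Il10rb among them, where 1645 of all probe sets were called. The fit with no replicate block called 25 of all probe sets for TNFα over DMSO and 5 for U0126/TNFα over U0126.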
